A study of Rattus norvegicus with 54 samples.

Results

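The let-7 family is described here through rno-let-7a-5p, rno-let-7b-5p, rno-let-7c-5p, rno-let-7d-5p, rno-let-7e-5p, rno-let-7f-5p, rno-let-7g-5p, rno-let-7i-5p and rno-miR-98-5p, chosen by name from the miR-seq count table. These 9 members stood among 832 rows of the table, or 753 rows once second copies of the same mature miRNA were left out. For let-7a, let-7c and let-7f the table held such a copy, which is reported beside the first row and was not counted as a further member. All 54 libraries of the study were used, from male Sprague-Dawley rats aged 9 weeks: 6 libraries of kidney, 12 of liver, 18 of plasma and 18 of urine. They form 18 groups of 3 libraries by sample type and treatment. The methods of the study state that 3 rats of each treatment were sequenced, so libraries of different sample types can come from the same rats. The main tests between sample types treated all libraries as independent. Cisplatin, a platinum drug toxic to the kidney tubule, was given once by the intravenous route at 5 mg/kg, with 0.9% saline as its vehicle, and the rats were sampled 72 h later for kidney, plasma and urine. Acetaminophen (APAP, 1250 mg/kg in 0.5% methylcellulose) and carbon tetrachloride (CCl4, 1500 mg/kg in corn oil), both toxic to the liver, were given by oral gavage, and the rats were sampled 24 h later for liver, plasma and urine. The controls of each toxicant received its vehicle alone. The labels of the urine cisplatin libraries state 1500 mg/kg, whereas the labels of the other cisplatin libraries and the methods of the study state 5 mg/kg.

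let-7 miRNAs bind target messenger RNAs through a shared seed near their 5′ end and repress them, and they are best known for holding cells in a differentiated state. In differentiated tissues such as adult liver and kidney the family is abundant, and its members are released to blood in vesicles and protein complexes. Because members are transcribed from several loci and differ by few bases outside the seed, each library gives both a level of the whole family and its division among members.

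The mature sequences are shown because all 9 carry the same seed and several can be told apart by a single base. They are RefSeq sequences of assembly GRCr8, written 5′ to 3′, and the capitals mark the seed, bases 2 to 8.
let-7a-5p: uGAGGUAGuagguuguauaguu
let-7b-5p: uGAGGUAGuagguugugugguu
let-7c-5p: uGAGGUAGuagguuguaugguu
let-7d-5p: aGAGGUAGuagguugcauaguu
let-7e-5p: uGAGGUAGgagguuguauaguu
let-7f-5p: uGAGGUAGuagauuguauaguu
let-7g-5p: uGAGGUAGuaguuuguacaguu
let-7i-5p: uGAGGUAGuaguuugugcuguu
miR-98-5p: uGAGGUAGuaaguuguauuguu

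Of the 693 rat mature miRNAs in that RefSeq table, the 9 members were the ones with this seed, and 0 other rows of the count table carried it. Of the 36 pairs of members, 4 differed by 1 base and 14 by at most 2 bases. Counting positions from 1 at the 5′ end and giving the let-7a base first, let-7c differed from let-7a by A19G, let-7e by U9G and let-7f by G12A. let-7b differed by A17G and A19G, and so by 1 base from let-7c. let-7d differed by U1A and U16C, let-7g by G12U and U18C, and miR-98 by G11A and A19U. let-7i was the farthest from let-7a, with G12U, A17G, U18C and A19U. Reads were aligned with up to 2 mismatches allowed, so the assignment of reads between members 1 or 2 bases apart is uncertain and was not tested. In GRCr8 let-7a-1, let-7f-1 and let-7d lie together on chromosome 17, let-7b with let-7c-2 on chromosome 7, let-7f-2 with miR-98 on chromosome X, let-7e with miR-99b and miR-125a on chromosome 1, let-7c-1 with miR-99a on chromosome 11, and let-7a-2 with miR-100 on chromosome 8. let-7g on chromosome 8 and let-7i on chromosome 7 had no other miRNA gene of these lists within 10 kb.

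The total of counted reads was 372997 to 3591541 per kidney library, 273410 to 2213358 per liver library, 21627 to 1290244 per plasma library and 377 to 58151 per urine library. The urine libraries of vehicle rats held 410 to 2725 counted reads and 17 to 204 reads of the family, so levels in urine had little precision. Lists of marker miRNAs were summed in vehicle rats. The liver list, which holds miR-122 and also miR-192 and miR-194 that kidney expresses as well, stood at 18.7% to 21.8% of the reads in liver, 8.62% to 9.76% in kidney and 3.38% to 51.1% in urine. The defining liver miRNA miR-122-5p stood at 21070 CPM (counts per 1000000 after the scaling described with the tests) in liver and 2.31 CPM in kidney. The kidney list, such as miR-10b-5p, stood at 32.3% to 35.5% in kidney and 4.46% to 5.67% in liver. In plasma of vehicle rats the liver list stood at 0.364% to 2.01% and the white blood cell list at 3.54% to 5.36%. Methylcellulose urine libraries 1 and 2 showed no detectable difference beyond that of counting reads (p = 0.221 in a chi-square test of their reads over miRNAs, 1.22 for each degree of freedom), while both differed from library 3 (19.9 and 24.5). The next closest urine pairs were CCl4 libraries 2 and 3 and corn oil libraries 1 and 3, each at 1.72. Libraries 1 and 2 held 625 and 950 counted reads under different column headers, so they are not the same counts deposited again. At this depth the test had little power, and whether they come from 1 sample was not tested. As a precaution, no mean with an SD is given for urine of methylcellulose rats. The urine APAP comparison was repeated with both as 1 sample. Urine medians and urine against plasma kept both as separate libraries. In these bulk samples, fewer cells of a type and less RNA per cell cannot be told apart.

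The family took a far larger part of the miRNA reads in plasma than in either organ. In kidney of saline rats the 9 members held 3.46% ± 0.104 of the counted reads (SD, n = 3), and in liver they held 3.58% ± 0.286 in methylcellulose rats and 3.37% ± 0.0932 in corn oil rats. In plasma they held 15.5% ± 0.820 in methylcellulose rats, 15.9% ± 2.90 in corn oil rats and 16.8% ± 0.648 in saline rats. All 9 plasma libraries of vehicle rats, at 12.8% to 18.6%, lay above all 9 tissue libraries, at 3.27% to 3.88%. The 9 urine libraries of vehicle rats lay between them, with a lowest share of 4.42%, a median of 7.69% and a highest of 9.98%. These shares were summed over the first rows and describe the libraries without a test.

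**Figure D1:**
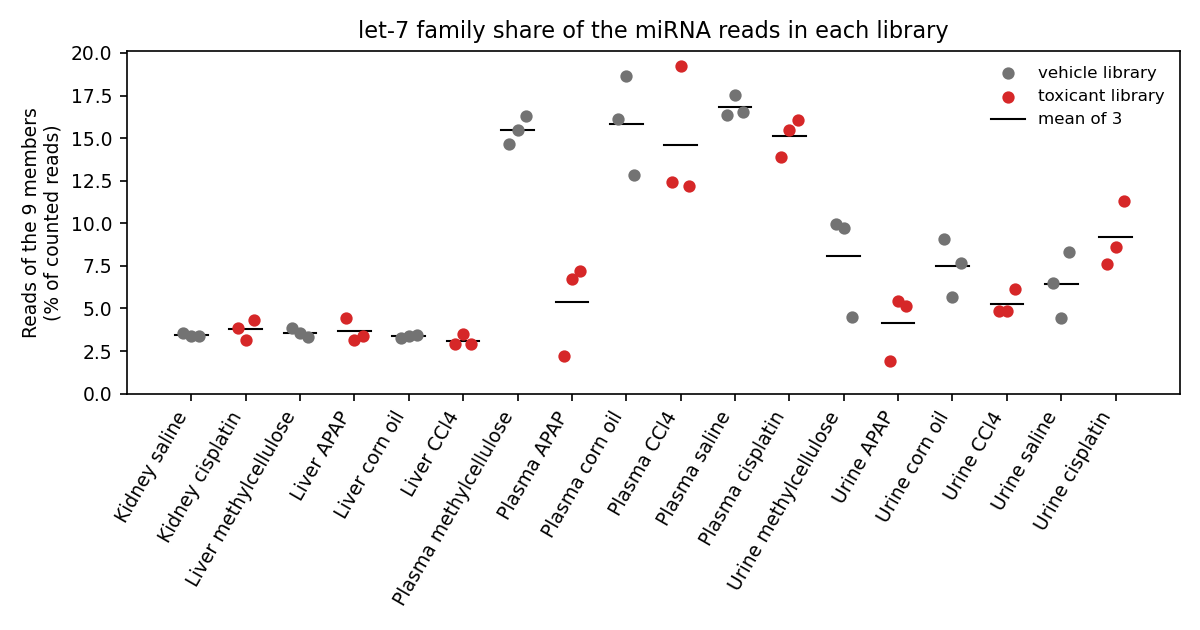
Share of the counted miRNA reads taken by the 9 let-7 members (y axis, %) in each of the 54 libraries by group (x axis), with vehicle libraries in grey, toxicant libraries in red and a bar at the mean of 3. Plasma libraries of vehicle rats sit at 12.8% to 18.6% and the plasma APAP libraries at 2.24% to 7.18%, while the tissue libraries of vehicle rats stay at 3.27% to 3.88%.

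The family was also divided differently between organ and plasma. let-7f, the member with the highest mean share in kidney, liver, urine and, pooled over vehicles, plasma, held 39.1% ± 3.82 of the family reads in kidney (n = 3), 43.4% ± 1.73 in liver (n = 6) and 36.8% ± 3.55 in plasma (n = 9). let-7i held 7.35% ± 1.11 in kidney and 7.39% ± 0.256 in liver but 35.0% ± 5.38 in plasma, next to let-7f. In plasma let-7i held more than let-7f on average in methylcellulose rats (37.1% against 35.9%) and corn oil rats (36.7% against 34.4%) and less in saline rats (31.2% against 39.9%). The mean shares of let-7a, let-7b, let-7e, let-7f and let-7g were smaller in plasma than in either organ. let-7a went from 12.3% in kidney and 19.2% in liver to 6.09% in plasma. let-7g went from 12.1% and 11.4% to 3.31%, and let-7b from 7.42% and 3.41% to 2.31%. let-7e, at 1.94% in kidney and 0.652% in liver, was the scarcest member in plasma at 0.137%. let-7c and let-7d kept similar shares, 16.8%, 11.3% and 12.0% for let-7c and 2.40%, 2.95% and 3.65% for let-7d. miR-98 was below 1% of the family reads in each sample type. In urine of vehicle rats let-7f held a median of 56.4% of the family reads and let-7c 15.4%, while let-7i held 5.13%.

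**Figure D2:**
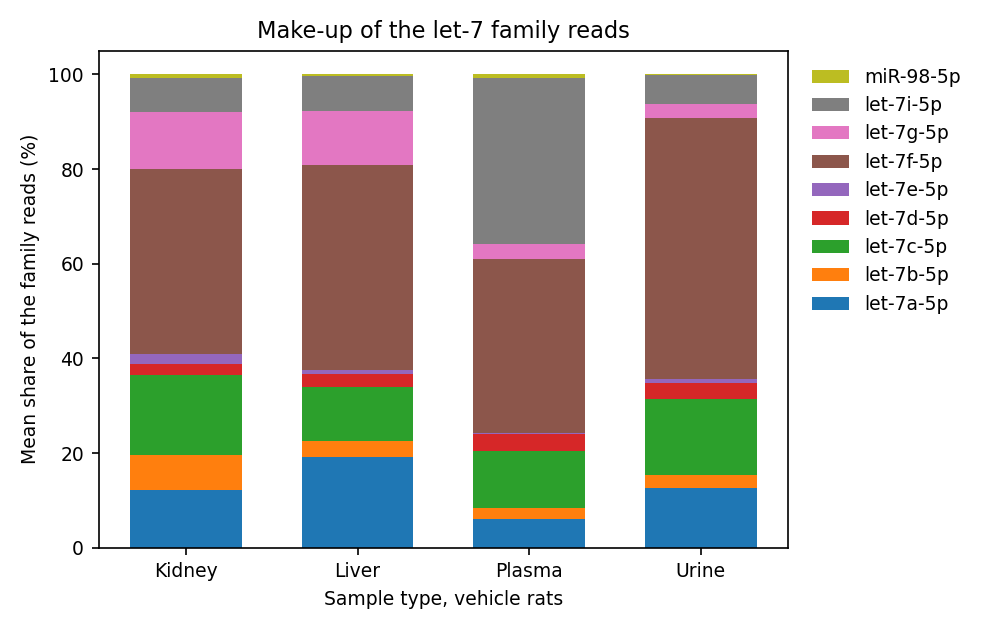
Mean share of the family reads held by each member (y axis, %) in vehicle rats, as stacked bars for kidney (3 libraries), liver (6), plasma (9) and urine (9). let-7f is the widest band in each bar, though in plasma let-7i has the higher mean share in methylcellulose (37.1% against 35.9%) and corn oil rats (36.7% against 34.4%), and let-7i widens from 7.35% in kidney and 7.39% in liver to 35.0% in plasma.

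The levels of let-7i, miR-98 and let-7e are given here by library as reads per 1000000 counted reads with copies left out (RPM). let-7i stood at 2926, 2654 and 2066 in the kidney libraries of saline rats and at 46500, 57120 and 54000 in their plasma. In liver it ran from 2389 to 2832, with a median of 2516, and over all 9 plasma libraries of vehicle rats from 39310 to 84780, with a median of 54000. Kidney and liver overlapped for let-7i, and plasma lay apart from both. miR-98 stood at 208.5, 248.9 and 213.8 in kidney and at 886.1, 1212 and 1147 in plasma of the same treatment group, and in liver it ran from 99.8 to 152.8 with a median of 121.8. Its order of plasma, kidney and liver was complete, with no overlap between neighbours. let-7e was highest in kidney. It stood at 647.3, 638.5 and 726.1 in kidney, ran from 189.3 to 255.0 in liver with a median of 223.9, and from 128.1 to 349.3 in plasma with a median of 208.2. Kidney lay apart from liver, and liver and plasma overlapped.

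The other members had these mean levels in RPM in kidney, liver and plasma, in that order. let-7f stood at 13520 ± 1284, 15060 ± 737 and 58820 ± 7099, and let-7c at 5826 ± 286, 3921 ± 454 and 19170 ± 3275. let-7d stood at 830.8 ± 69.0, 1027 ± 143 and 5799 ± 886, and let-7a at 4252 ± 525, 6681 ± 679 and 9768 ± 1209. Plasma was the highest of these 3 sample types for each of those 4. let-7b stood at 2571 ± 315, 1186 ± 90.5 and 3677 ± 495. let-7g stood at 4184 ± 73.5, 3956 ± 358 and 5237 ± 2132, and its plasma libraries ran from 1334 to 8043, on both sides of every tissue library. In urine of vehicle rats let-7f had a median of 44500 RPM and let-7c of 10890, while let-7e was at 0 in 7 of 9 libraries and miR-98 was seen as 1 read in 9 libraries. A count of 0 in those libraries allows up to 3 reads per library, which is 1220 to 8219 RPM in urine libraries other than those of cisplatin rats.

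Sample types were compared with edgeR's quasi-likelihood test after TMM scaling, with Benjamini-Hochberg adjustment over all miRNAs tested. TMM scaling aims to set the bulk of miRNAs equal between libraries. Here a difference remained, with a median over all miRNAs of -0.23 in plasma against kidney and -0.66 in plasma against liver. The median was 0.11 in liver against kidney and -0.94 in urine against plasma. A log2 value is thus to be read beside the median of its comparison. In plasma against kidney of saline rats, 6 of 9 members were higher and 1 was lower, where 39.2% of all 278 miRNAs tested were higher and 45.7% lower, 84.9% in all. let-7i was higher by 3.61 on the log2 scale (SE 0.22, adjusted p = 8.84e-09), let-7d by 1.94 (SE 0.18), let-7f by 1.57 (SE 0.17), miR-98 by 1.52 (SE 0.22) and let-7c by 1.13 (SE 0.17). let-7e was lower, at -2.49 (SE 0.21, adjusted p = 1.45e-07). These 6 calls held under all 13 alternatives, with let-7c at 0.67 without saline kidney replicate 3. The call of let-7a, at 0.44 (SE 0.18, adjusted p = 0.034), held in 5 of 13 alternatives. It was lost without any 1 of the 6 libraries, and it turned to -0.17 (adjusted p = 0.427) with no filter on low counts and to -0.06 (adjusted p = 0.727) without saline kidney replicate 3. let-7b (-0.18) and let-7g (-0.08) did not pass, and their direction depended on the scaling: scaled to total counts they were called higher (0.47 and 0.55), and with no filter lower (-0.79 and -0.70). The median over all miRNAs tested was -0.23 with TMM and 0.40 with total counts.

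Plasma against liver of methylcellulose and corn oil rats again put let-7i first. Here 5 of 9 members were higher and 3 lower, where 31.9% of all 282 miRNAs tested were higher and 51.1% lower, 83% in all. let-7i was higher by 3.13 (SE 0.24, adjusted p = 1.83e-08), miR-98 by 1.95 (SE 0.21), let-7d by 1.13 (SE 0.17), let-7c by 0.78 (SE 0.18) and let-7f by 0.46 (SE 0.15). The let-7f call (adjusted p = 0.0127) held in 18 of 19 alternatives. The second row of let-7f, at 0.33 (adjusted p = 0.0519), was not called, and its groups overlapped. let-7e was lower at -1.48 (SE 0.26), let-7g at -1.25 (SE 0.30) and let-7a at -0.85 (SE 0.19), and let-7b did not pass at 0.18 (SE 0.18). The direction of let-7a and let-7g depended on the scaling. With TMM let-7a, at -0.85 (SE 0.19), lay near the median over all miRNAs of -0.66, so its call shows little departure from the bulk. Scaled to total counts, let-7a was at 0.43 (adjusted p = 0.0236) and let-7g at 0.08 (adjusted p = 0.843), when the median over all miRNAs moved from -0.66 to 0.64. Leaving out any 1 of methylcellulose plasma replicates 1, 2 and 3 or corn oil plasma replicates 1 and 3 moved the members upwards together. In these fits the median over all miRNAs went from -0.66 to between -0.145 and 0.004, so the members moved with the bulk. let-7a then stood at -0.16 to -0.03 and was not called, and let-7g was called only without corn oil replicate 1, at -0.82 (adjusted p = 0.0246). let-7e stood at -0.78 to -0.61, let-7f at 1.12 to 1.29, let-7c at 1.42 to 1.55 and let-7d at 1.75 to 1.94, all still called. Over all libraries left out, let-7i ran from 2.88 to 3.97 and miR-98 from 1.89 to 2.84.

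Between the organs themselves the members split. In liver against kidney, 3 of 9 were higher and 4 lower, where 42.9% of all 275 miRNAs tested were higher and 36.4% lower, 79.3% in all. let-7e had the widest difference, at -1.42 (SE 0.12, adjusted p = 1.59e-10), and let-7b was at -0.98 (SE 0.10), miR-98 at -0.71 (SE 0.14) and let-7c at -0.44 (SE 0.09). let-7a was higher in liver by 0.79 (SE 0.10, adjusted p = 3.54e-07). let-7d (0.44, SE 0.11) kept its call in 12 of 16 alternatives, losing it without saline kidney replicate 1 or 3 or methylcellulose liver replicate 1, and let-7f (0.29, SE 0.10) kept it in 2 of 16, losing it without any 1 library but corn oil liver replicate 2, and let-7g (0.05) and let-7i (0.15) did not pass. Without saline kidney replicate 3, let-7a was at 0.52.

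In urine against plasma of vehicle rats, 7 of the 8 members tested were lower and 0 higher, where 49.5% of all 109 miRNAs tested were lower and 22.9% higher, 72.5% in all. let-7i had the clearest difference, at -3.60 (SE 0.42, adjusted p = 3.78e-08), with no overlap between the sample types. let-7g stood at -1.45 (SE 0.45), let-7d at -1.46 (SE 0.40), let-7b at -1.26 (SE 0.35), let-7c at -0.94 (SE 0.31) and let-7f at -0.72 (SE 0.31). The median over all miRNAs tested was -0.94, so let-7c lay at that median and let-7f above it. The 7 calls included miR-98, which rests on 1 urine read and for which no fold is given. Leaving out 1 library moved several of these values by over 1.5 times. let-7i ran from -4.67 to -3.28, let-7g from -2.36 to -1.28, let-7d from -2.41 to -1.20, let-7b from -2.13 to -1.41 in the 9 of 18 such fits that tested it, and let-7c from -1.96 to -0.72. let-7f ran from -1.71 to -0.53 and lost its call without plasma methylcellulose replicate 2 or 3, corn oil replicate 3 or saline replicate 2.

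Beside the members, the miRNAs encoded next to some let-7 genes were measured. The 5 cluster partners, miR-99a, miR-99b, miR-100, miR-125a and miR-125b, were all called lower in plasma than in kidney and than in liver. This held for 45.7% and 51.1% of all miRNAs tested. The medians of the partners were -3.51 and -2.71 on the log2 scale, against -0.23 and -0.66 over all miRNAs. let-7c-1 lies beside miR-99a, and let-7c was higher in plasma than in both organs, whereas let-7e, which lies beside miR-99b and miR-125a, was lower like these partners. The opposite arms were summed per vehicle library, with let-7c-2-3p left out because RefSeq gives it the sequence of let-7a-1-3p. The 3p reads made up a median of 1.81% of the reads of both arms in kidney (1.78% to 2.08%), 2.09% in liver (1.82% to 2.19%) and 0.985% in plasma (0.785% to 1.68%), so plasma lay below both organs. In urine 6 of 9 vehicle libraries held 0 reads of 3p arms. let-7d stood apart, with a median of 29.3% of its reads on the 3p arm in kidney, 32.7% in liver and 20.0% in plasma, where the libraries ran from 12.4% to 33.9% and overlapped with the organs. let-7i was almost wholly 5p, with a median 3p share of 0.327% in kidney and 0.0562% in plasma. let-7b-3p went from a median of 3.62% in kidney and 5.94% in liver to 0.503% in plasma, with no overlap. Over all libraries of a sample type, the copies followed their first rows, with copy reads per first-row read of 0.987 for let-7a in liver, and of 1.05 in kidney, 1.16 in liver and 1.07 in plasma for let-7f.

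Across the 12 groups of kidney, liver and plasma, the summed family level ran closest to the levels of miR-425-5p (Pearson r = 0.986), miR-320-3p (0.984), miR-24-2-5p (0.982), miR-15b-5p (0.978) and miR-151-3p (0.977), of 139 candidates. Among the members, let-7f (0.99), let-7d (0.984), let-7i (0.981), miR-98 (0.939) and let-7c (0.925) followed the family sum most closely. let-7g (0.778), let-7b (0.754) and let-7a (0.537) followed it less, and let-7e did not (-0.142). The family sum contains each member, so the correlations of abundant members such as let-7f with it are partly built in. All these correlations describe group means on a log2 scale, and the groups share libraries' depth and sample type.

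No member was called in kidney after cisplatin. For let-7f the saline libraries stood at 12267, 11386 and 14336 counts per 1000000 after TMM scaling (CPM) and the cisplatin libraries at 15614, 10730 and 15477, so the groups overlapped. With edgeR, 0 of 9 members were called, 0 had an unadjusted p under 0.05 and DESeq2 called 0, where 1.74% of all 344 miRNAs tested were called. Differences ran from 0.02 for let-7e to 0.37 (SE 0.20) for miR-98, whose highest cisplatin library, at 363.1 CPM, was replicate 3 and whose groups overlapped. The median over the members was 0.14 and over all miRNAs 0.05. The family share was 3.77% ± 0.614 after cisplatin.

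Plasma 72 h after cisplatin carried less let-7c. Its 3 saline libraries stood at 17788, 18965 and 15685 CPM and its 3 cisplatin libraries at 7422, 7812 and 7619 CPM. The groups lay far apart and the cisplatin libraries were within a narrow range. let-7c fell by 1.20 on the log2 scale (SE 0.22, adjusted p = 0.00227), the single call among the 9 members, where 4.05% of all 222 miRNAs tested were called and 2.25% were called lower. It was called under all 15 alternatives, with values from -1.39 to -1.10. Within the family let-7c went from 12.8% ± 1.76 to 5.49% ± 0.380 of the reads, a measure that does not depend on scaling between libraries. Its second row gave -1.20 as well, and both rows are among the 5 called lower.

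let-7b, which differs from let-7c by 1 base, stood at 3261, 3262 and 2867 CPM in saline plasma and at 2049, 2198 and 2191 CPM in cisplatin plasma. Those groups also did not overlap, but its difference of -0.54 (SE 0.23, adjusted p = 0.273) did not pass. let-7b and let-7c were the 2 of 9 members whose groups did not overlap, where this held for 13.1% of all miRNAs tested. let-7a, which also differs from let-7c by 1 base, stood at 7619, 8021 and 8185 CPM against 7947, 14390 and 11564 CPM, a difference of 0.51 (adjusted p = 0.324). Relative to let-7f in the same library, let-7c was lower after cisplatin by a log2 ratio difference of -1.54, let-7b by -0.88 and let-7d by -0.27, each with no overlap, which describes the libraries and was not tested.

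Cisplatin plasma replicate 1 stood apart from the other cisplatin libraries for several members. let-7f was at 51750, 52558 and 59706 CPM in saline plasma and at 49981, 79574 and 83087 CPM in cisplatin plasma, and let-7e at 172.0, 134.5 and 178.4 CPM against 133.0, 342.6 and 422.8 CPM. let-7i was at 36245, 45017 and 47371 CPM against 47588, 30971 and 29972 CPM. In each case replicate 1 lay with the saline libraries or on their side, and replicates 2 and 3 lay together. By the column headers, that library was sequenced in lane 1 with all saline plasma libraries and the other cisplatin libraries in lane 2. With all libraries, let-7e (0.89, SE 0.37, adjusted p = 0.273), let-7f (0.37, adjusted p = 0.56), let-7a and let-7i (-0.25, adjusted p = 0.829) did not pass. Without cisplatin replicate 1, 4 members were called: let-7e at 1.31 (adjusted p = 0.00378), let-7a at 0.79 (adjusted p = 0.0106), let-7f at 0.65 (adjusted p = 0.0106) and let-7c. With lane as a term let-7e was at -0.29 (adjusted p = 0.864) and let-7c at -1.24 (adjusted p = 0.00578), so for let-7e, let-7a and let-7f lane and treatment cannot be told apart. let-7d (0.09), let-7g (-0.07) and miR-98 (0.17) had overlapping groups.

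**Figure D3:**
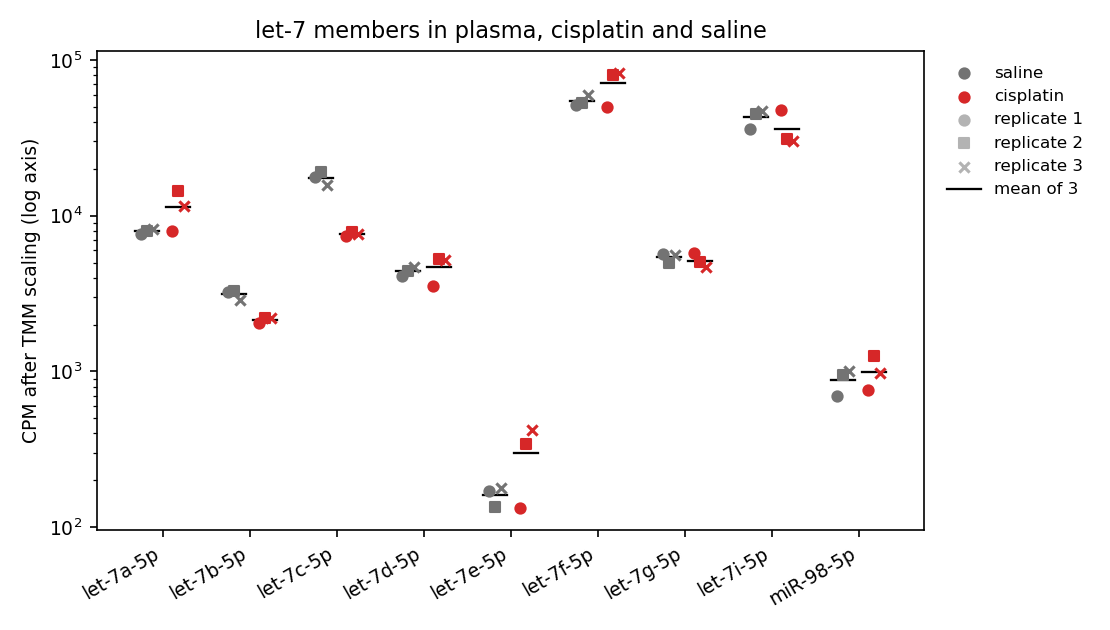
Level of each member (y axis, CPM after TMM scaling, log axis) in the 3 saline (grey) and 3 cisplatin (red) plasma libraries, with a marker shape per replicate and a bar at the mean. let-7c falls to 7422, 7812 and 7619 CPM, below all saline libraries, and for let-7e, let-7f and let-7i cisplatin replicate 1 (circle) lies away from replicates 2 and 3.

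Red blood cell miRNAs moved with let-7c in these plasma libraries. Of the 4 in the table, 3 fell, miR-144-5p by 2.04, miR-144-3p by 1.90 and miR-451-5p by 1.63 on the log2 scale, and miR-16-5p was at -0.36 and was not called. Their summed share was 2.78% to 2.90% in saline and 1.68% to 2.17% in cisplatin plasma, and 0 of the 4 were at 0. Their part in the let-7c result was not tested. The miRNAs encoded beside let-7c genes or their relatives, miR-99a-5p (0.27) and miR-125b-5p (0.16), and the opposite arm let-7c-2-3p (-0.32), which has the sequence of let-7a-1-3p, were not called.

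In urine after cisplatin the libraries were deeper, at 5580 to 58151 counted reads against 410 to 2725 in saline, and 7 members could be tested. With edgeR, 0 of 7 were called, 0 had an unadjusted p under 0.05 and DESeq2 called 0, where 14% of all 43 miRNAs tested were called. let-7g stood at 0, 2009 and 3762 CPM in saline and at 4864, 5415 and 6009 CPM in cisplatin urine, on 0, 1 and 9 reads against 257, 39 and 32. Its groups did not overlap, which held for 34.9% of all miRNAs tested, and its difference of 1.11 (SE 0.63, adjusted p = 0.254) did not pass. let-7b was at 1.18 (SE 0.71, adjusted p = 0.268) with overlapping groups. let-7e had 24, 6 and 0 reads and miR-98 27, 3 and 10 reads after cisplatin, and both had 0 reads in all 3 saline libraries, where a count of 0 allows up to 3 reads per library. A difference for these 2 members was not detectable at this depth. The family share was 9.17% ± 1.91 after cisplatin and 6.41% ± 1.94 in saline.

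No member was called in liver 24 h after APAP. For let-7a the methylcellulose libraries stood at 7407, 6249 and 6389 CPM and the APAP libraries at 8236, 5765 and 6171 CPM, with the groups overlapping. With edgeR, 0 of 9 members were called, 0 had an unadjusted p under 0.05 and DESeq2 called 0, where 3.21% of all 249 miRNAs tested were called. Differences ran from -0.16 (SE 0.16) for let-7d to 0.29 (SE 0.22) for miR-98, and APAP replicate 1 was the highest library for 8 of the 9 members.

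Plasma after APAP had more members called than any other comparison with vehicle, and they differed in direction. In all, 5 of 9 members differed, 4 lower and 1 higher, where 5.29% of all 227 miRNAs tested were called lower, 21.6% higher and 26.9% in either direction. The 12 rows called lower include these 4 members, the let-7a copy (adjusted p = 0.0123) and the 3p arm of let-7d, so that share is not independent of the family. miR-98 stood at 781, 680 and 882 CPM in methylcellulose plasma and at 64.3, 155 and 177 CPM after APAP. It fell by 2.52 on the log2 scale (SE 0.51, adjusted p = 0.00407), the groups being far apart. let-7e stood at 121.3, 68.0 and 163.4 CPM against 11.7, 21.3 and 32.9 CPM. It fell by 2.19 (SE 0.56, adjusted p = 0.014), again with no overlap. let-7e had 5 reads in the shallowest methylcellulose library and 2 to 15 reads in the APAP libraries, so the size of its fall has little precision. let-7a stood at 4912, 4862 and 6896 CPM against 1718, 2016 and 2044 CPM and fell by 1.52 (SE 0.38, adjusted p = 0.012). let-7d stood at 2841, 4016 and 3791 CPM against 859, 1367 and 1897 CPM and fell by 1.37 (SE 0.43, adjusted p = 0.0345), a call lost without methylcellulose replicate 2 (adjusted p = 0.0753) or APAP replicate 2 (adjusted p = 0.0803). The lower calls of let-7a (15 of 15 alternatives) and let-7e (14 of 14) held throughout, and that of miR-98 in 14 of 15, being lost at equal depth (-1.55, adjusted p = 0.104).

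let-7g was the member that was higher. It stood at 3278, 2720 and 1863 CPM in methylcellulose plasma and at 10639, 4906 and 5428 CPM after APAP, a difference of 1.41 (SE 0.44, adjusted p = 0.0345) with no overlap, APAP replicate 1 being the highest. This call was fragile and depended on scaling. It was lost without any one of methylcellulose replicates 1 (adjusted p = 0.115), 2 (0.198) and 3 (0.189), without APAP replicate 1 (0.0516), with no filter on low counts (1.02, adjusted p = 0.19) and with copies left out (0.0522). Scaled to total counts let-7g was at 0.12 (adjusted p = 0.844). Within the family, however, its share went from 3.00% to 10.5% of the reads.

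The 4 other members did not pass. let-7i stood at 30640, 27833 and 42125 CPM against 14407, 20589 and 21378 CPM, with no overlap and a difference of -0.83 (SE 0.36, adjusted p = 0.104). let-7b stood at 1652, 2129 and 1928 CPM against 1332, 1448 and 1542 CPM, also with no overlap, at -0.40 (adjusted p = 0.48). let-7c (-0.04, adjusted p = 0.961) and let-7f (-0.16, adjusted p = 0.746) had overlapping groups. let-7f, for example, stood at 33503, 29624 and 32876 CPM against 23252, 28594 and 33780 CPM. In all, 6 members lay lower with no overlap and 1 higher, where this held for 16.7% and 32.2% of all miRNAs tested. At an unadjusted p under 0.05 there were 6 members, and the median over the members was -0.84 against 0.21 over all miRNAs.

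The level of the whole family in APAP plasma depended on what it was set against, and the division within the family did not. The TMM factors were 1.42 to 1.63 in methylcellulose and 0.350, 0.922 and 0.894 in APAP libraries, and scaling to total counts moved the median of all miRNAs from 0.21 to -0.92. On that scale miR-98 was at -3.44, let-7e at -3.18, let-7a at -2.55, let-7d at -2.31, let-7i at -1.81 (adjusted p = 0.0163) and let-7b at -1.45 (adjusted p = 0.0495). let-7c (-1.14) and let-7f (-1.17) had an adjusted p of 0.0677. The family took 15.5% ± 0.820 of the reads in methylcellulose and 2.24%, 6.71% and 7.18% in the APAP libraries. Set against let-7f in the same library, miR-98 was lower by a log2 ratio difference of -2.49, let-7e by -2.19, let-7a by -1.33, let-7d by -1.25 and let-7i by -0.65, and let-7g was higher by 1.54, each with no overlap between the groups. Set against let-7f, let-7b and let-7c overlapped. On these ratios let-7a and let-7f, which differ by G12A alone, moved apart, as did let-7g and let-7i, which both carry G12U. Whether their reads were assigned correctly was not tested. let-7a went from 6.16% to 2.81% of the family reads and miR-98 from 0.871% to 0.189%.

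**Figure D4:**
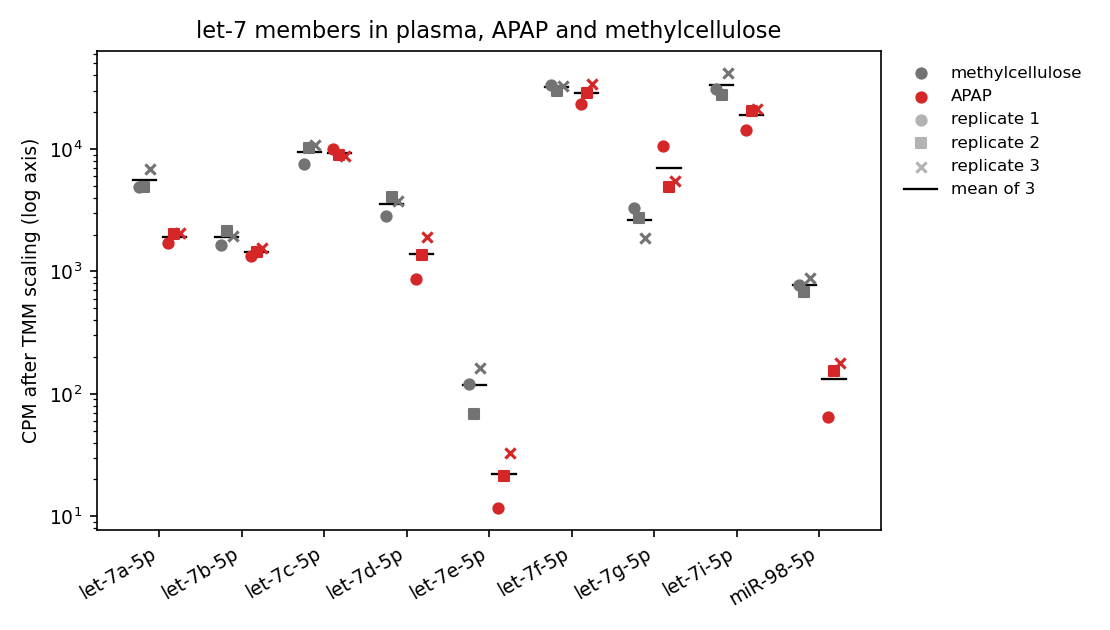
Level of each member (y axis, CPM after TMM scaling, log axis) in the 3 methylcellulose (grey) and 3 APAP (red) plasma libraries, with a marker shape per replicate and a bar at the mean. The APAP libraries of miR-98, let-7e, let-7a and let-7d lie below all methylcellulose libraries, those of let-7g lie above, and those of let-7c and let-7f overlap with them.

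Liver miRNAs were far more abundant in these APAP plasma libraries. All 5 in the list rose, miR-122-5p by 7.85 and miR-192-5p by 6.73 on the log2 scale, and their summed share was 0.364% to 0.869% in methylcellulose and 16.7% to 29.4% in APAP plasma. White blood cell miRNAs summed to 4.41% to 5.04% in methylcellulose and 0.345% to 2.07% in APAP plasma, and 0 of those 5 were called after TMM scaling with edgeR, with 1 at an unadjusted p under 0.05. The part of either list in the let-7 results was not tested. Of the cluster partners tested, miR-99a-5p rose by 3.45 (adjusted p = 0.0119) and miR-125b-5p by 2.98 (adjusted p = 0.0293), while miR-99b-5p (-0.26) and miR-125a-5p (-0.21), which are encoded beside let-7e, were not called. The 3p arm of let-7d fell with its 5p arm, by 1.55 (adjusted p = 0.0411). Plasma methylcellulose replicate 3 was the shallowest plasma library, with 21627 counted reads, and APAP replicate 1 had the lowest TMM factor. Without both, let-7g was at 0.59 (adjusted p = 0.0467) and let-7i at -0.67 (adjusted p = 0.0169).

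In urine after APAP 2 members could be tested. let-7c had 6, 13 and 15 reads in methylcellulose and 0, 7 and 9 reads in APAP urine, a difference of -1.37 (SE 0.50, adjusted p = 0.207 by edgeR). Its groups did not overlap on the CPM scale, which held for 20% of all 20 miRNAs tested. let-7f had 29, 38 and 45 reads against 4, 49 and 54 reads, at -0.43 (adjusted p = 0.297). With edgeR 0 of 2 members were called, 1 had an unadjusted p under 0.05 and DESeq2 called 0, and 0% of all miRNAs tested were called. The count stayed at 0 with methylcellulose urine libraries 1 and 2 as 1 sample. APAP urine replicate 1 held 7 family reads, a share of 1.92% with a Wilson 95% interval of 0.932% to 3.91%, which covers counting error only since reads without molecular identifiers are not independent molecules.

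Liver 24 h after CCl4 held slightly less let-7f. Its corn oil libraries stood at 13448, 16420 and 15204 CPM and its CCl4 libraries at 11418, 11027 and 10523 CPM, with no overlap. let-7f fell by 0.45 on the log2 scale (SE 0.12, adjusted p = 0.0475), the single call of 9 members, where 2.76% of all 254 miRNAs tested were called and 1.57% were called lower. The call lay at the threshold and was lost in 13 of 15 alternatives, among them DESeq2 (-0.38, adjusted p = 0.0576) and lane as a term (-0.40, adjusted p = 0.649), and without corn oil replicate 2 (adjusted p = 0.27) or 3 (0.166) or CCl4 replicate 1 (0.0955) or 3 (0.0706). CCl4 replicates 2 and 3 were sequenced in another lane than the corn oil libraries. White blood cell miRNAs differed in the same libraries. Of 5 in that list, 2 rose, miR-155-5p by 2.06 (adjusted p = 6.45e-05) and miR-223-3p by 1.83 (adjusted p = 3.08e-05) on the log2 scale, and the summed share of the list was 0.260% to 0.362% in corn oil and 0.399% to 0.546% in CCl4 liver. Their part in the let-7f result was not tested. Shares over all miRNAs count copy rows, and the 4 rows called lower in this comparison include let-7f and its copy (adjusted p = 0.0463). let-7c stood at 3292, 3785 and 4199 CPM against 2725, 3160 and 3087 CPM, also with no overlap, at -0.33 (SE 0.12, adjusted p = 0.155). In all, 3 of 9 members lay lower with no overlap, where this held for 16.1% of all miRNAs tested. let-7i was at 0.04 (SE 0.12), and the median over the members was -0.23 against -0.07 over all miRNAs. The 5 cluster partners were all lower with no overlap and had an adjusted p of 0.155 each, so 0 were called and 5 had an unadjusted p under 0.05.

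Plasma after CCl4 showed no call among the members. miR-98 stood at 1126, 1129 and 765.5 CPM in corn oil and at 339.0, 1243 and 419.8 CPM in CCl4 plasma, a difference of -0.60 (SE 0.58, adjusted p = 0.835), with CCl4 replicate 2 above all corn oil libraries and the other CCl4 libraries below them. let-7g stood at 5995, 1232 and 3366 CPM against 5870, 5423 and 6528 CPM, at 0.75 (SE 0.57, adjusted p = 0.713). let-7e was at -0.85 (SE 0.61, adjusted p = 0.673). With edgeR 0 of 9 members were called, 0 had an unadjusted p under 0.05 and DESeq2 called 0, where 0.433% of all 231 miRNAs tested were called. let-7d was the 1 member whose groups did not overlap, where this held for 12.1% of all miRNAs tested. The liver list summed to 0.407% to 2.01% in corn oil and 3.06% to 9.61% in CCl4 plasma. In urine after CCl4, let-7c (-0.47, SE 0.86) and let-7f (-0.23, SE 0.35) could be tested, with edgeR 0 were called, 0 had an unadjusted p under 0.05 and DESeq2 called 0, where 0% of all 20 miRNAs tested were called.

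The fall of members in APAP plasma was not shown to be larger than that in CCl4 plasma. In a fit of all 4 plasma groups, the APAP effect minus the CCl4 effect was -1.76 (SE 0.73, adjusted p = 0.266) for miR-98, -1.10 (SE 0.59, adjusted p = 0.377) for let-7a and 0.68 (SE 0.73, adjusted p = 0.772) for let-7g. With edgeR 0 of 9 members were called, 1 had an unadjusted p under 0.05 and DESeq2 called 0, where 0% of all 255 miRNAs tested were called. In liver the same difference was 0.49 (SE 0.18, adjusted p = 0.406) for let-7f, with 0 of 9 members called by edgeR or DESeq2, 1 at an unadjusted p under 0.05, and 0% of all 262 miRNAs tested called.

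**Figure D5:**
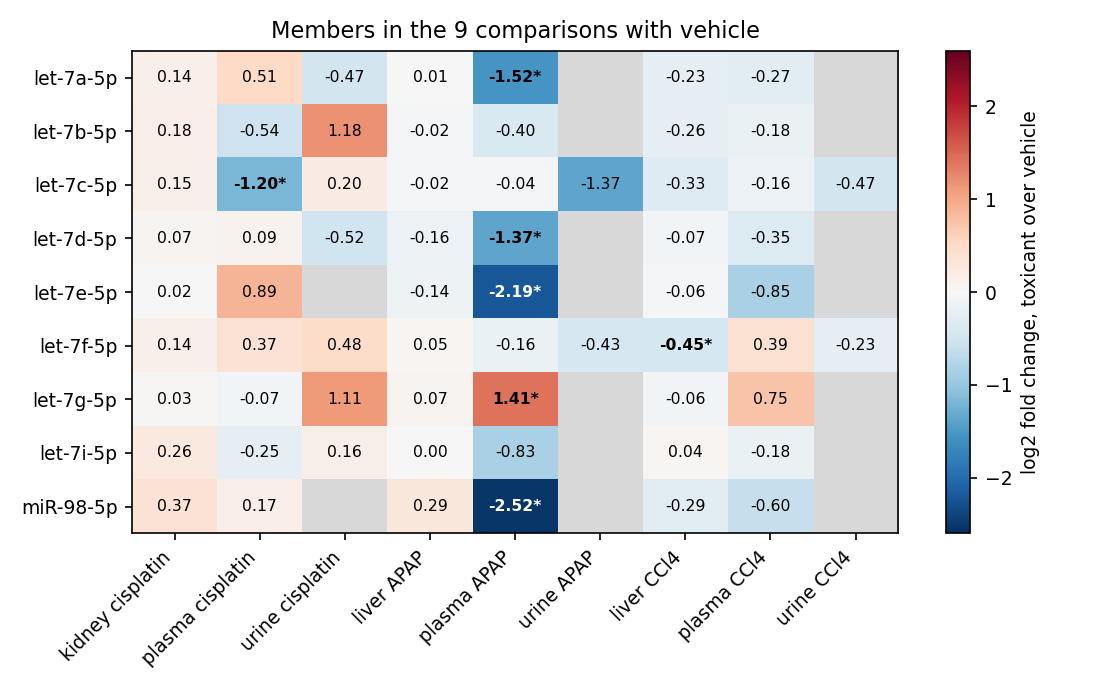
Log2 fold change of each member (rows) between toxicant and vehicle in the 9 comparisons (columns), coloured from lower (blue) to higher (red), with an asterisk at an adjusted p under 0.05 and grey where a member was not tested. The asterisks mark let-7c in plasma after cisplatin (-1.20), let-7f in liver after CCl4 (-0.45), and 5 members in plasma after APAP, of which let-7g (1.41) is the one higher.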

How the data were processed

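The authors made the deposited counts, raw read counts per mature miRNA, from 36-base single reads of TruSeq small RNA libraries run on a Genome Analyzer IIx. Reads were aligned with OSA 4 to Rnor 5.0 and counted on miRBase 21 with up to 2 mismatches, and reads with over 10 locations were left out. A copy row can hold the same reads as its first row. Copy rows were tested too and are counted among all miRNAs tested. RNA came from fluids by a biofluid method and from tissue by another, so preparation and sample type cannot be told apart.

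The members and the lists beside them were chosen with earlier results of these data known, and all 9 members were named. Counts were tested over the whole table with edgeR 4.0.16 in R 4.3.3 (TMM, filterByExpr at its settings of 10 reads per library and 15 in total, quasi-likelihood test, two-sided) with Benjamini-Hochberg adjustment over all miRNAs tested and a threshold of 0.05. The fit was tested on simulated data. Only the groups compared entered a fit. Replicates are separate rats, and different sample types can come from the same rats. In kidney, same-numbered cisplatin and saline libraries deviated together (r = 0.263, 0.327 and 0.379, each over 0.1). The labels do not say that they are pairs, and the kidney values given come from the fit without pairs. The replicate block, run as an alternative, changed no call there. Shares and RPM left copies out. The 3p shares were taken per vehicle library and left out let-7c-2-3p, which has the sequence of let-7a-1-3p. Alternatives were DESeq2 1.42.0, RLE and total-count scaling, no filter, copies left out, equal depth, a replicate block, all libraries of a sample type, lane as a term and leaving out each library.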

Additional observations from a re-analysis of the deposited data

How the results depend on the processing

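Of 242 counts of called members under the alternatives, 221 stayed within 1.5 times the main count and 21 did not. Of 610 values for called members, 543 kept direction and call, 63 lost the call and 4 reversed. In liver after CCl4 the count of 1 went to 0 under DESeq2, RLE factors, total counts, no filter, copies left out, equal depth, the replicate block (let-7f adjusted p = 0.25), all libraries of the sample type and lane as a term, and was 0 to 1 when 1 library was left out. In plasma after APAP the count of 5 was 3 at equal depth and 3 to 5 when 1 library was left out. In plasma after cisplatin it was 1 to 4, with 4 without cisplatin replicate 1. In urine against plasma the count of 7 was 1 at equal depth, where 2 members were tested, and 4 to 8 when 1 library was left out. The values that reversed were rno-let-7a-5p in plasma against kidney (-0.17 with no filter, and -0.059 to 0.307 when 1 library was left out) and, with total counts, rno-let-7a-5p (0.43) and rno-let-7g-5p (0.075) in plasma against liver. The cause of these changes was not tested, apart from the fewer reads and miRNAs at equal depth. The replicate block changed no other count of called members, and outside kidney the same-numbered libraries did not all deviate together. Lane could not be a term where all libraries shared 1 lane. Urine depth limits all values of rarer members there.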
